A study of Mus musculus with 10 samples.

Results

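The 9 genes described here encode enzymes of the glycerol phosphate pathway in mouse proximal jejunum, the upper stretch of the small intestine where much dietary fat is absorbed. They are the glycerol 3-phosphate acyltransferase genes Gpam, Gpat3 and Gpat4, Agpat1, Agpat2 and Agpat3 for acylation of lysophosphatidate, and the lipin genes Lpin1, Lpin2 and Lpin3. They were chosen by name, with earlier results of these data known, and not by a threshold on a measured value. All 9 were found by symbol among the 24368 genes of the deposited table, 1 row each, and all 9 had a mean of at least 10 normalised reads over the 10 libraries, the minimum for testing. A normalised read is a read counted on a gene divided by the size factor of its library.

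The study compared 5 libraries labelled WT with 5 labelled cKO, 1 library per mouse. The cKO mice carried a conditional knockout of the RNA-binding protein HuR, encoded by Elavl1, in the intestinal epithelium, and the WT mice were their littermates. The comparison asks how loss of epithelial HuR bears on the transcripts of fat absorption. The sources used here do not name the Cre driver, the age and sex of the mice, their diet or the time of sampling. RNA came from jejunal tissue and not from sorted epithelium, so transcripts of other cells were measured too.

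In the glycerol phosphate pathway, an acyltransferase of the GPAT family joins a fatty acid to glycerol 3-phosphate and makes lysophosphatidate. An AGPAT enzyme adds a further fatty acid to give phosphatidate, and a lipin removes the phosphate to give diacylglycerol. Diacylglycerol is then turned into triglyceride by DGAT enzymes or into phospholipid. Absorptive enterocytes after a meal make most of their triglyceride by the monoacylglycerol pathway, which enters at diacylglycerol and bypasses these steps.

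Recovered reads ran from 16063987 to 18927440 per library and mitochondrial genes took 2.69% to 9.48% of normalised reads. The summed normalised reads of a library ran from 1.34e+07 in cKO 3 to 2.04e+07 in cKO 1. Elavl1 stood between 631 and 709 normalised reads in WT and between 556 and 725 in cKO, so a count over the whole gene did not separate the groups. The 6 enterocyte markers Vil1, Alpi, Krt20, Fabp2, Epcam and Cdh1 were all measured, with a summed level of 563030 to 689406 in WT and 496008 to 852625 in cKO, and none passed the test. Fabp2 was the largest part of this sum in every library. Log2 fold changes were positive for 2 of the 6 markers and negative for 4, with a median of -0.14, and Alpi was at -0.72 (limma adjusted p = 0.177). In cKO 3 Vil1, Alpi, Krt20 and Epcam lay below every WT library, and Fabp2 and Cdh1 did not. The libraries cKO 3 and cKO 5 stood apart in the clock gene Per2, at 12.7 and 16.03 normalised reads against 342 to 749 in the other 8. With limma, 186 of 14062 genes passed an adjusted p of 0.05, of which 62 were higher in cKO and 124 lower. Leaving out WT 1, 3, 4, 5 or 6 gave 94, 43, 30, 67 or 60 genes, and leaving out cKO 1, 2, 3, 4 or 5 gave 190, 220, 65, 611 or 111. Scaling by library totals in edgeR gave 86 higher and 74 lower, scaling by totals without mitochondrial and the most abundant genes gave 75 higher and 88 lower, and leaving out cKO 3 and cKO 5 gave 26 higher and 30 lower. DESeq2 gave 335 higher and 415 lower. Both scalings by totals shifted the all-gene median, to 0.14 and 0.11 on the log2 scale.

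None of the 9 members passed limma's adjusted p of 0.05, where 1.32% of all genes tested did. At an unadjusted p of 0.05 the members were 4 of 9, namely Agpat1, Gpam, Agpat2 and Agpat3, against 18.6% of all genes tested. The groups did not overlap for 3 of 9 members, against 4.87% of all genes tested. These were Gpam, higher in all 5 cKO libraries than in any WT library, as were 1.86% of all genes, and Agpat2 and Agpat3, lower in all 5, as were 3.01%. In CPM, recovered reads scaled by each library's own total and added after seeing the data, Gpam alone of the 9 kept groups apart, against 3.82% of all genes tested. On that scale cKO 5 entered the WT range for Agpat2, at 299 with a lowest WT library of 277, and for Agpat3, at 103.5 with a lowest WT library of 99.6. Fitted differences were positive for 3 members and negative for 6, with a median log2 fold change of -0.22 beside 0.01 for all genes tested. The quasi-likelihood test of edgeR on recovered reads passed none of the 9 and 1.29% of all genes, and DESeq2 passed Agpat1, Agpat2 and Gpam, at adjusted p of 0.0415, 0.0346 and 0.0484, where it passed 5.33% of all genes tested. In the authors' deposited table the adjusted p of the 9 ran from 0.108 to 0.942, with a log2 fold change of 0.65 for Gpam and -0.57 for Agpat1, and that comparison may include the 2 libraries not used here. In bulk tissue, fewer cells of a type and less RNA per cell cannot be told apart.

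**Figure D1:**
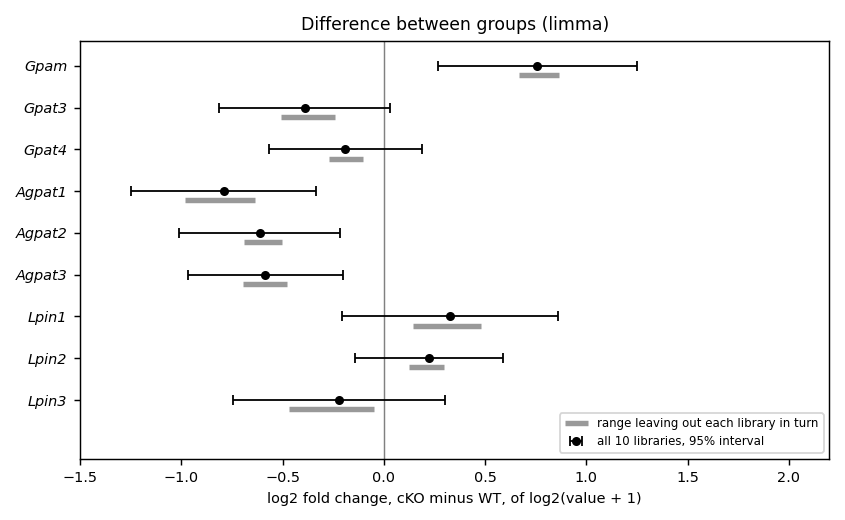
Log2 fold change of each member (cKO minus WT, on the log2(value + 1) scale) with the 95% interval from limma over 10 libraries (points and whiskers) and the range of the estimate when each library is left out in turn (grey bars). The intervals of Gpam, Agpat1, Agpat2 and Agpat3 lie on one side of 0, and those of Gpat3, Gpat4, Lpin1, Lpin2 and Lpin3 span it.

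Levels of the members were compared per kilobase of the gene length in the deposited table. In WT, Agpat2 had the highest level of the 9, at 2758 ± 576 normalised reads per kilobase (SD, n = 5), followed by Gpat3 at 1090.4 ± 153 and Agpat1 at 796 ± 48.8. Lpin3 came next at 703 ± 105, then Lpin2 at 383 ± 50.6 and Agpat3 at 243 ± 5.93. Gpat4 stood at 48.5 ± 9.46, Gpam at 9.55 ± 2.11 and Lpin1 at 7.73 ± 2.55. The GPAT step was thus led by Gpat3, the AGPAT step by Agpat2 and the lipin step by Lpin3, with Gpam and Lpin1 the scarcest genes. Among neighbours in this order the WT ranges overlapped for Gpat3 and Agpat1, for Agpat1 and Lpin3, and for Gpam and Lpin1, and were apart for the other 5 pairs.

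In cKO the order was Agpat2 at 1802 ± 356 normalised reads per kilobase (SD, n = 5), Gpat3 at 850.3 ± 230.3, Lpin3 at 647 ± 315, Agpat1 at 485 ± 187 and Lpin2 at 451 ± 87.8. Below them stood Agpat3 at 167 ± 44.3, Gpat4 at 42.4 ± 7.39, Gpam at 16.2 ± 3.005 and Lpin1 at 9.46 ± 2.01. Agpat1 thus moved from above to below Lpin3 in the order, and Lpin3 was the higher in all 5 cKO libraries where Agpat1 was the higher in 4 of 5 WT libraries. The cKO ranges of these genes overlapped, as did those of Gpat3 and Lpin3 and of Agpat1 and Lpin2. Gpam and Lpin1 overlapped in WT and not in cKO, where Gpam was the higher in all 5 libraries.

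**Figure D2:**
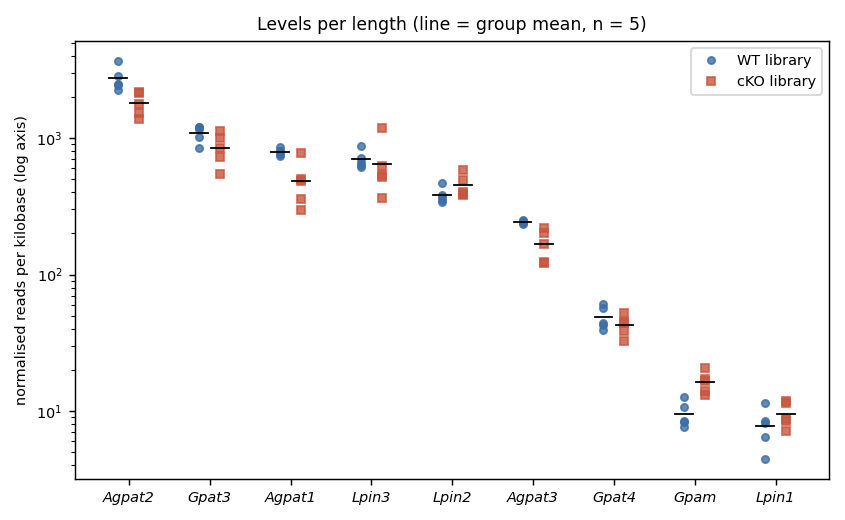
Normalised reads per kilobase (log axis) of each member in every library, WT as circles and cKO as squares, with a line at each group mean (n = 5). Agpat2 has the highest mean in both groups, and Gpam and Lpin1 the lowest, from 7.73 to 16.2 normalised reads per kilobase.

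Gpam encodes the mitochondrial enzyme GPAT1, known from liver and fat. The deposited table places it at chromosome 19, 55069734 to 55099451 on the minus strand of mm10, with a length of 3832 bases. GENCODE M21 on the same build (GRCm38) extends the gene from 55067268 to 55127238 with 6664 exonic bases, of which 2832 lie outside the span in the table. For the other 8 members the start, end and exonic length were the same in both. How many Gpam reads fell in the part left out was not tested, so its level is that of the shorter model. RefSeq (GRCm38.p6) gives Gpam a start site at 55099477, just beyond the end of that model, and a further one at 55127238. The 250 bases upstream of the latter, chr19:55127239-55127488 on the minus strand, are printed because the span counted for Gpam does not reach this start site.
Gpam upstream: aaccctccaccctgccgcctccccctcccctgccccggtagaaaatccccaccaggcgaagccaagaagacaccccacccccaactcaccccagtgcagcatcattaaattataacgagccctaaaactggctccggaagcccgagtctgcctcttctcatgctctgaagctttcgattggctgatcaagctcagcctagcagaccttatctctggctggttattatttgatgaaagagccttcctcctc

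Gpam was scarce in these libraries, with 30 to 100 recovered reads each. Normalised reads were 31.7, 32.4, 29.2, 40.9 and 48.7 in WT 1, 3, 4, 5 and 6, and 63.6, 53.7, 79.3, 65.02 and 49.7 in cKO 1, 2, 3, 4 and 5. The highest WT value, in WT 6, lay just under the lowest cKO value, in cKO 5, so the groups touched without overlap. The WT mean of Gpam was 36.6 ± 8.08 and the cKO mean 62.2 ± 11.5 (n = 5 each, SD). For Gpam the log2 fold change was 0.76 ± 0.23 SE, with a 95% interval of 0.27 to 1.25 (limma adjusted p = 0.110). Counting error alone at these read numbers gives a coefficient of variation of 16.7% in WT, beside 22.1% measured.

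Gpat3 encodes an acyltransferase of the endoplasmic reticulum and lies at chromosome 5, 100845713 to 100899102, on the plus strand. Normalised reads of Gpat3 were 4247, 2994, 3568, 4203 and 4081 in WT 1, 3, 4, 5 and 6. In cKO 1, 2, 3, 4 and 5 they were 3492, 2540.0, 1913, 3984 and 2959. Of the cKO libraries, 3 lay below the lowest WT library and cKO 1 and cKO 4 within the WT range. For Gpat3 the log2 fold change was -0.39 ± 0.20 SE, with an interval of -0.82 to 0.03 (limma adjusted p = 0.306). The antisense gene 4930458D05Rik shares 1052 exonic bases with Gpat3 in GENCODE M21 and averaged 36.5 normalised reads in WT and 35.1 in cKO. Whether the counting used strand is not stated in the sources used here.

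Gpat4, the closest relative of Gpat3 in the endoplasmic reticulum, lies at chromosome 8, 23171265 to 23208346, on the minus strand. It ran from 261 to 403 normalised reads in WT and from 219 to 350.1 in cKO, with overlapping groups. Its log2 fold change was -0.19 ± 0.18 SE, with an interval of -0.57 to 0.19 (limma adjusted p = 0.592).

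Within the GPAT step the makeup was dominated by Gpat3 in both groups, at 93.7% to 95.8% of the summed reads per kilobase of Gpam, Gpat3 and Gpat4 in WT and 90.3% to 95.3% in cKO. Gpam took 0.648%, 0.932%, 0.702%, 0.852% and 1.04% in WT 1, 3, 4, 5 and 6. In cKO 1, 2, 3, 4 and 5 it took 1.59%, 1.77%, 3.42%, 1.41% and 1.44%. These shares did not overlap between the groups, and the highest belonged to cKO 3, which had the lowest Gpat3 and the highest Gpam. The level of Gpat3 per kilobase was 91.6 to 147 times that of Gpam in WT and 26.4 to 67.1 times in cKO. The summed level of the step overlapped between the groups, at 907 to 1278 normalised reads per kilobase in WT and 605 to 1199 in cKO.

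**Figure D3:**
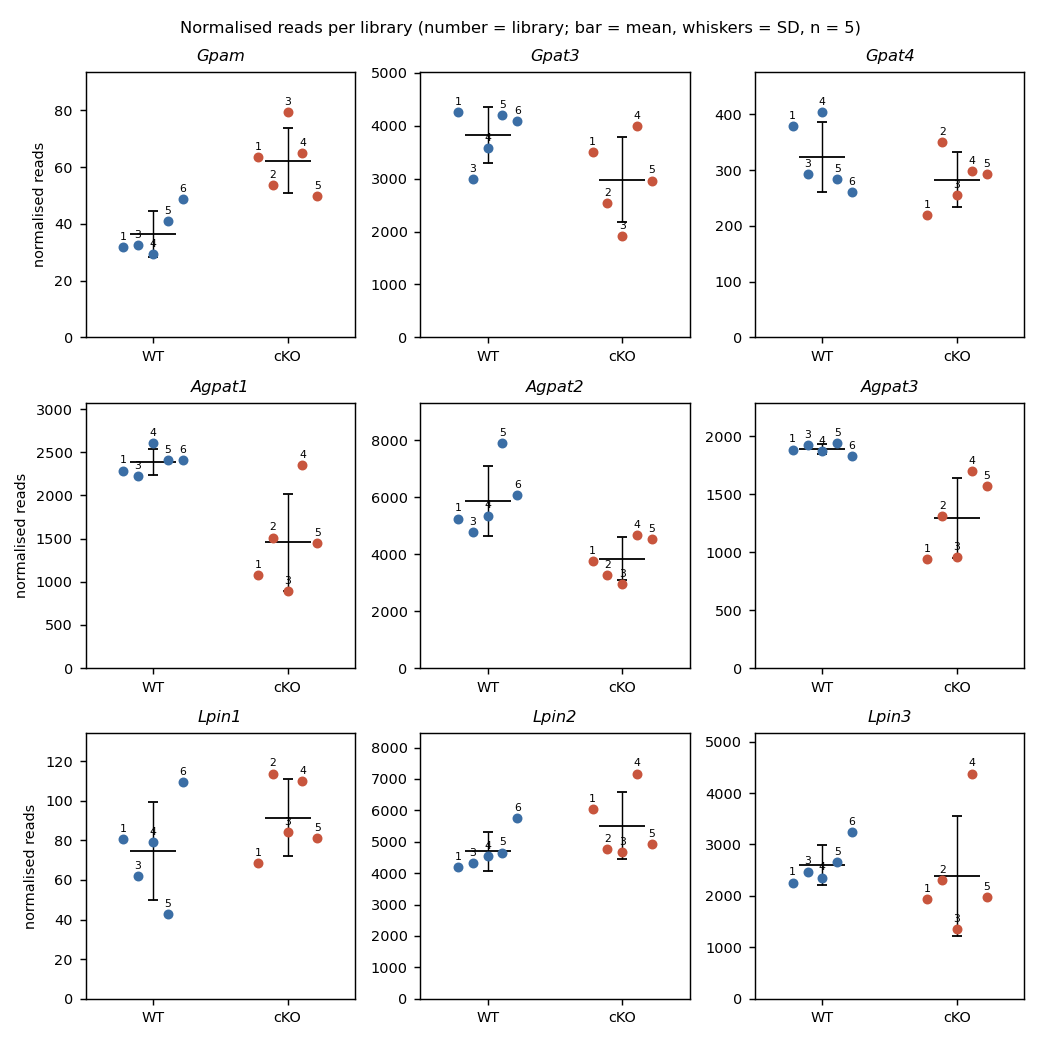
Normalised reads of each member in every library (points, numbered by library), with the group mean (bar) and SD (whiskers, n = 5), on axes that start at 0. For Gpam all cKO points lie above all WT points, for Agpat2 and Agpat3 all lie below, and for Agpat1 cKO 4 (2347) is the 1 cKO library within the WT range.

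Agpat1 encodes a lysophosphatidate acyltransferase of the endoplasmic reticulum and lies at chromosome 17, 34604262 to 34613449, on the plus strand. Normalised reads of Agpat1 were 2289, 2224, 2607, 2413 and 2406 in WT 1, 3, 4, 5 and 6, and 1078, 1512, 892, 2347 and 1450.1 in cKO 1, 2, 3, 4 and 5. Thus 4 cKO libraries lay below every WT library, and cKO 4 lay within the WT range. The WT mean of Agpat1 was 2388 ± 146 and the cKO mean 1456 ± 561 (n = 5 each, SD). The coefficient of variation was 6.13% in WT and 38.5% in cKO. For Agpat1 the log2 fold change was -0.79 ± 0.22 SE, with an interval of -1.25 to -0.33 (limma adjusted p = 0.0794). Without cKO 4 it was -0.98 (limma adjusted p = 0.0128), and 4.34% of all genes then passed.

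Agpat2, the AGPAT gene whose loss causes lipodystrophy, lies at chromosome 2, 26593057 to 26604417, on the minus strand. Normalised reads of Agpat2 were 5248, 4779, 5355, 7903 and 6087 in WT 1, 3, 4, 5 and 6, and 3772, 3263, 2953, 4667 and 4542 in cKO 1, 2, 3, 4 and 5. No cKO library reached the lowest WT library, WT 3, and cKO 4 came nearest. The WT mean of Agpat2 was 5874 ± 1227 and the cKO mean 3839 ± 758 (n = 5 each, SD). For Agpat2 the log2 fold change was -0.61 ± 0.19 SE, with an interval of -1.01 to -0.21 (limma adjusted p = 0.111). On the opposite strand Egfl7 shares 64 exonic bases with it and averaged 39.7 normalised reads in WT and 56.4 in cKO.

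Agpat3, an acyltransferase with activity on several lysophospholipids, lies at chromosome 10, 78269178 to 78352489, on the minus strand. Normalised reads of Agpat3 were 1886, 1928, 1871, 1942 and 1827 in WT 1, 3, 4, 5 and 6, the tightest group of the 9 genes with a coefficient of variation of 2.44%, close to the 2.32% that counting error alone gives. In cKO 1, 2, 3, 4 and 5 they were 942, 1312, 961, 1701 and 1570.4, a coefficient of variation of 26.6%. The WT libraries spread more widely in CPM, from 99.6 to 112.7, so the closeness to counting error depends on the scaling. In normalised reads all 5 cKO libraries lay below all 5 WT libraries. The WT mean of Agpat3 was 1891 ± 46.2 and the cKO mean 1297 ± 345 (n = 5 each, SD). For Agpat3 the log2 fold change was -0.59 ± 0.18 SE, with an interval of -0.97 to -0.20 (limma adjusted p = 0.112). Without cKO 4 it was -0.69 (limma adjusted p = 0.0398).

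The summed level of Agpat1, Agpat2 and Agpat3 ran from 3232 to 4764 normalised reads per kilobase in WT and from 1807 to 3191 in cKO, without overlap. Their proportions overlapped between the groups, with Agpat2 at 69.4% to 77.9% in WT and 68.6% to 78.7% in cKO and Agpat3 at 5.23% to 7.66% and 5.37% to 7.64%. Agpat1 took 16.9% to 23.98% in WT and 16.0% to 24.5% in cKO.

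The upstream sequences of Agpat1 and Agpat2 are printed because these genes had the lowest fitted differences of the 9. They are the 250 bases before a RefSeq start site (GRCm38.p6), chr17:34605611-34605860 on the plus strand for Agpat1 and chr2:26604418-26604667 on the minus strand for Agpat2. The Agpat1 window lies within the span of Agpat1 in the deposited table, and the Agpat2 window lies just outside that of Agpat2. Neither window overlaps an exon of GENCODE M21.
Agpat1 upstream: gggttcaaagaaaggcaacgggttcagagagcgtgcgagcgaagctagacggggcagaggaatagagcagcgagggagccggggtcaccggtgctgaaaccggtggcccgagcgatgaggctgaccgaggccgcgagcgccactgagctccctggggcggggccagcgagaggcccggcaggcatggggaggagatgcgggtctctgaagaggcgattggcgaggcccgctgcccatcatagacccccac
Agpat2 upstream: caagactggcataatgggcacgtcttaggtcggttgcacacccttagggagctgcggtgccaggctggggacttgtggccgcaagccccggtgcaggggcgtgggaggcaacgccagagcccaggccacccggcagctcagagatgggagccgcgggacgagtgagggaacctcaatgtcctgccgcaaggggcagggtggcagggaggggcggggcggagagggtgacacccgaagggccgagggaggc

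Both printed windows are rich in G and C, at 67.6% for Agpat1 and 69.2% for Agpat2, where the median of all 32851 promoter windows of this length is 52.4%. A further RefSeq window of Agpat1, chr17:34608764-34609013, is nearer that median, at 54.4%. The letters of 4 motifs were searched on both strands in 13 windows of the 8 members that RefSeq matched, all but Gpat4. They were CACGTG (an E-box), the PPAR response element (a direct repeat), TCACCCCAC (a sterol response element) and CAAAGTCCA (an HNF4 element), which occur in 6.02%, 0.0335%, 0.496% and 0.384% of all windows. Neither printed AGPAT window holds any of them. The 1 match among the members was CACGTG in Lpin2, ending 3 bases before a start site within the span of Lpin2 in the deposited table. It lies in the 30 bases at chr17:71183502-71183531 on the plus strand, with the motif in capitals.
Lpin2 upstream: cggcgggggcggagctcgcgtCACGTGgcc

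Lpin2 encodes a phosphatidate phosphatase known from liver and intestine and lies at chromosome 17, 71182560 to 71249817, on the plus strand. Normalised reads of Lpin2 were 4199, 4317, 4532, 4657 and 5751 in WT 1, 3, 4, 5 and 6, and 6040.1, 4778, 4673, 7168 and 4926 in cKO 1, 2, 3, 4 and 5. All 5 cKO libraries lay above the WT median, and cKO 1 and cKO 4 above the highest WT library, but the groups overlapped. In CPM cKO 3, cKO 4 and cKO 5 lay above the highest WT library, at 348, 390 and 325 against 313. On that scale cKO 1, at 296, did not. For Lpin2 the log2 fold change was 0.22 ± 0.17 SE, with an interval of -0.14 to 0.59 (limma adjusted p = 0.506). It was 0.33 with totals without mitochondrial and the most abundant genes (limma adjusted p = 0.248), and the authors' deposited table lists 0.34.

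Lpin3, a lipin known from the intestine, lies at chromosome 2, 160880670 to 160906002, on the plus strand. Normalised reads of Lpin3 were 2258, 2474, 2353, 2654 and 3239 in WT 1, 3, 4, 5 and 6, and 1932, 2309, 1356, 4376 and 1974 in cKO 1, 2, 3, 4 and 5. Its cKO group spanned the WT range on both sides, with 3 libraries below it and cKO 4 above it, and had the largest coefficient of variation of the 9 genes, 48.6%. For Lpin3 the log2 fold change was -0.22 ± 0.25 SE, with an interval of -0.75 to 0.30 (limma adjusted p = 0.659). Single libraries moved the Lpin3 value, to -0.47 without cKO 4 (limma adjusted p = 0.138), -0.05 without cKO 3 (0.950) and -0.14 without WT 6 (0.829). Its sign turned without cKO 3 and cKO 5, to 0.065 (limma adjusted p = 0.935), and the authors' deposited table lists 0.05.

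Lpin1, a phosphatidate phosphatase of muscle and fat that also acts in the nucleus, lies at chromosome 12, 16535669 to 16610966, on the minus strand. It had 43 to 125 recovered reads per library and ran from 42.9 to 109 normalised reads in WT and from 68.7 to 114 in cKO. The groups overlapped, with 2 cKO libraries above the highest WT library. Its log2 fold change was 0.33 ± 0.25 SE, with an interval of -0.20 to 0.86 (limma adjusted p = 0.503). For Lpin1 the estimate was 0.15 without WT 5 and 0.48 without WT 6.

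Among the lipins, Lpin3 held 62.7% to 65.1% and Lpin2 34.3% to 36.5% of the summed reads per kilobase in all 5 WT libraries. In cKO the proportions spread. Lpin2 took 48.2%, 38.02%, 50.4%, 32.9% and 42.6% in cKO 1, 2, 3, 4 and 5, above every WT library in 4 and below every WT library in cKO 4. Lpin1 stayed at 0.402% to 1.15% in all 10 libraries. The summed lipin level overlapped between the groups, at 963 to 1358 normalised reads per kilobase in WT and 758 to 1782 in cKO. Set against the AGPAT step, the summed level of Lpin2 and Lpin3 was 0.231 to 0.346 times that of Agpat1 to Agpat3 in WT and 0.333 to 0.555 times in cKO, and only cKO 5 lay within the WT range.

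**Figure D4:**
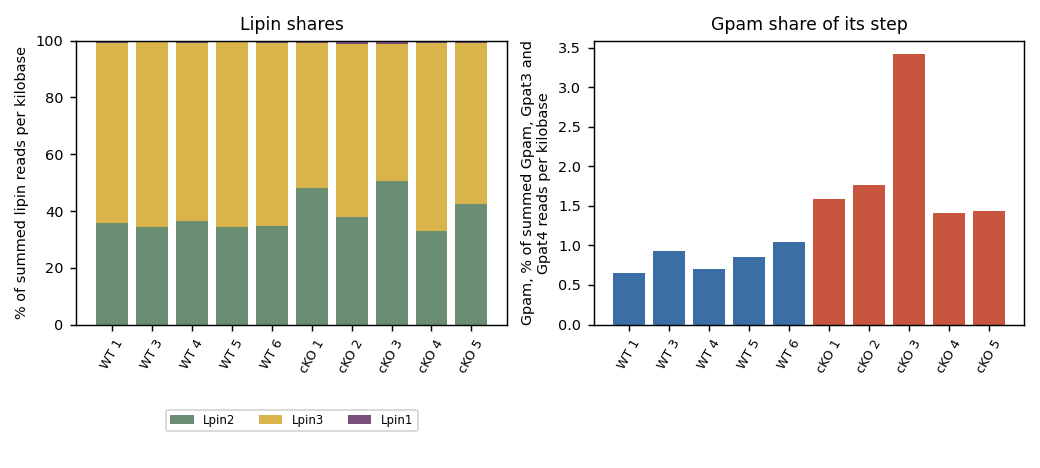
Left, the share of Lpin2, Lpin3 and Lpin1 in the summed lipin reads per kilobase of each library (stacked bars, %). Right, the share of Gpam in the summed reads per kilobase of Gpam, Gpat3 and Gpat4 (bars from 0, %), which ran from 0.648% to 1.04% in WT and from 1.41% to 3.42% in cKO.

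In normalised reads, several members shared their highest and lowest library among the 5 cKO libraries, while the order between differed. The library cKO 4 held the highest value for Gpat3, Agpat1, Agpat2, Agpat3, Lpin2 and Lpin3. The lowest value for Gpat3, Agpat1, Agpat2, Lpin2 and Lpin3 belonged to cKO 3, which also held the highest Gpam. This order depended on the scaling. In CPM the lowest value for Agpat1, Agpat2, Lpin2 and Lpin3 belonged to cKO 1, and the highest for Agpat2 and Agpat3 to cKO 5. On that scale cKO 3 still held the lowest Gpat3 and the highest Gpam. Per2 was at 12.7 normalised reads in cKO 3 and at 16.03 in cKO 5. In cKO 5 Agpat2 and Agpat3 lay above their values in cKO 1, 2 and 3. This was not so for Agpat1 and Lpin3, which lay below cKO 2, or for Gpat3 and Lpin2, which lay below cKO 1. Of other clock genes in cKO 3 and cKO 5, Dbp was at 165 and 48.1 (WT 471 to 1693). Nr1d1 was at 892 and 735 there (WT 495 to 2505) and Bmal1 (Arntl) at 374 and 599.6 (WT 106 to 186). The summed level of 5 crypt and cycling cell markers (Lgr5, Olfm4, Mki67, Top2a and Ccna2) was 4914, 1023, 3947, 1259.9 and 2770.4 in cKO 1 to 5 and 1043 to 1738 in WT. All 5 of these markers had positive log2 fold changes with a median of 0.49 and none passed the test. The part of the clock and of crypt cells in the AGPAT, Gpat3 and lipin values was not tested. Without cKO 3 and cKO 5 the log2 fold change was -0.61 for Agpat1, -0.58 for Agpat2, -0.56 for Agpat3, 0.74 for Gpam and -0.21 for Gpat3, with limma adjusted p from 0.242 to 0.686.

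Markers of other cells were set beside Gpam. The summed level of the fibroblast markers Col1a1, Col3a1, Dcn and Pdgfra was 3984 to 4933 in WT and 5047 to 8162 in cKO, without overlap, and 2 of the 4, the collagen genes Col1a1 and Col3a1, rose (limma adjusted p = 0.0426 and 0.0357). The adipocyte markers Adipoq and Plin1 were at 0 in WT 1, WT 4, cKO 2 and cKO 5, and were highest in WT 6 for Plin1 and Adipoq alike, at 129.9 and 246 normalised reads. Of the 6 adipocyte markers 5 were tested and none passed, and their summed level, 7658 to 13624 in WT and 5022 to 11998 in cKO, was mostly Cidec. In the libraries with Adipoq and Plin1 at 0, Gpam stood at 31.7 and 29.2 in WT and at 53.7 and 49.7 in cKO, the lowest values of each group. In the libraries where both were present Gpam stood at 32.4, 40.9 and 48.7 in WT and at 63.6, 79.3 and 65.02 in cKO. In normalised reads Gpam was thus higher where these markers were present within either group. In CPM this held in WT and not in cKO. There cKO 1, with both markers present, had the lowest Gpam of the cKO libraries, at 3.11 against 3.44 in cKO 2 and 3.28 in cKO 5. Recovered reads of Gpam were 31 in WT 1 and 32 in WT 3. The part of fibroblasts and adipocytes in the Gpam values was not tested. Skeletal muscle markers, of which Ckm and Mylpf were high enough to test, were at 139 to 268 in WT and 104 to 225 in cKO with none past the test, and Tnnc2 was at 0 in 9 libraries.

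The genes whose pattern over the 10 libraries was most like that of a member were found by the mean absolute difference of log2 values, each centred on its own mean. Candidates were protein-coding genes with a symbol and a mean of at least 100 normalised reads, so scarcer genes could not be matches. For Gpam, of 8293 candidates with a median of 0.468, the nearest were Col3a1, a fibrillar collagen, at 0.103, Pkd2, a calcium channel of cilia, at 0.111 and Antxr1, an anthrax toxin receptor, at 0.134. For Agpat1, of 8292 candidates with a median of 0.472, they were Tcn2, a cobalamin carrier, at 0.0614, Mogat2, the monoacylglycerol acyltransferase of enterocytes, at 0.0817 and Slc3a2, a subunit of amino acid transporters, at 0.0840. Mogat2 had a log2 fold change of -0.70 (limma adjusted p = 0.124). Agpat3 stood at rank 65 of that order, at 0.155. For Lpin1 the nearest were Acot8, Idh2 and Capzb, at 0.194, 0.201 and 0.203 where the median was 0.418. A gene with the same value in all libraries would stand at 0.388 from Gpam, 0.470 from Agpat1 and 0.299 from Lpin1. The matches of Lpin1 were thus loose. All of these distances were taken over libraries that share the contrast between the groups.

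The other genes of the pathway were 22 by list, of which 21 were tested and Gpat2, with a mean under 10 normalised reads, was not. Of the 21, 1 rose and 1 fell, against 0.441% and 0.882% of all genes tested. Fitted differences were positive for 5 and negative for 16, with a median log2 fold change of -0.16 beside 0.01 for all genes. Non-overlapping groups were found for 4 genes, namely Agpat4, Gk5, Gpd1l and Chpt1, against 4.87% of all genes tested. In CPM of recovered reads Gk5 alone of these 4 kept the groups apart.

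Agpat4, a further acyltransferase of the AGPAT family at chromosome 17, 12118704 to 12219645, rose. Normalised reads of Agpat4 were 61.4, 41.5, 47.8, 89.8 and 52.0 in WT 1, 3, 4, 5 and 6, and 95.4, 118, 185, 167 and 231 in cKO 1, 2, 3, 4 and 5. The lowest cKO library lay just above the highest WT library, WT 5. For Agpat4 the log2 fold change was 1.41 ± 0.27 SE (limma adjusted p = 0.0213). The call was lost without WT 3, WT 4, WT 6 or cKO 3, at limma adjusted p of 0.0584, 0.0717, 0.0523 and 0.0582, and without cKO 3 and cKO 5 together, at 0.125. Its level per kilobase was 21.7 ± 7.01 in WT and 59.0 ± 19.9 in cKO (n = 5 each, SD), below that of Agpat1, Agpat2 and Agpat3 in both groups.

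Gk5, a putative glycerol kinase at chromosome 9, 96119362 to 96184608, fell. Normalised reads of Gk5 were 363, 344, 237, 319 and 277 in WT 1, 3, 4, 5 and 6, and 120, 161, 102, 188 and 162 in cKO 1, 2, 3, 4 and 5. All cKO libraries lay below all WT libraries. For Gk5 the log2 fold change was -1.09 ± 0.20 SE (limma adjusted p = 0.0196). Among the fits that left out libraries, the call was lost without WT 3, at limma adjusted p of 0.0545, and without cKO 3 and cKO 5 together, at 0.0683.

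The other genes of glycerol 3-phosphate supply and diacylglycerol use did not pass the test. Dgat2, which makes triglyceride from diacylglycerol, had a log2 fold change of -1.49 ± 0.45 SE (limma adjusted p = 0.117). It ran from 21379 to 52343 normalised reads in WT and from 4905 in cKO 3 to 35082 in cKO 4, so the groups overlapped through cKO 4. Dgat1, with the same reaction, had a log2 fold change of -0.46 (limma adjusted p = 0.228), and cKO 4 exceeded every WT library. Gpd1, the cytosolic enzyme that makes glycerol 3-phosphate, had a log2 fold change of -0.66 (limma adjusted p = 0.184). Chpt1, which makes phosphatidylcholine from diacylglycerol, had a log2 fold change of -0.51 (limma adjusted p = 0.121). All 7 listed genes of phosphatidate or diacylglycerol use had negative fitted differences, with a median log2 fold change of -0.34, and none passed the test.

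**Figure D5:**
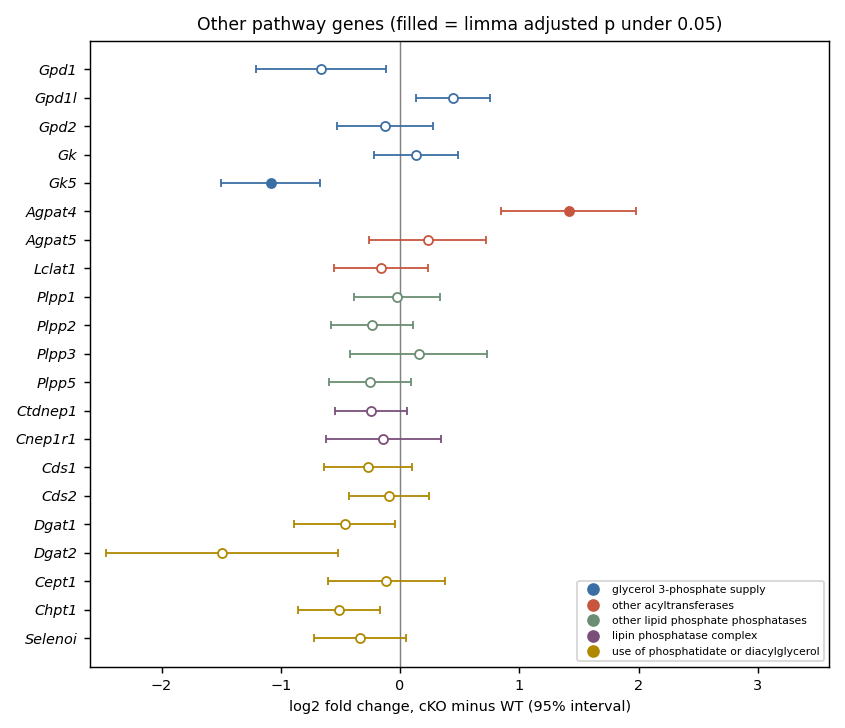
Log2 fold change (cKO minus WT) of the 21 other pathway genes tested, with 95% intervals from limma over 10 libraries, and filled points for an adjusted p under 0.05. Agpat4 (1.41) and Gk5 (-1.09) are the filled points.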

How the data were processed

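RNA from proximal jejunum of 5 WT and 5 cKO mice was sequenced. Per the submitters' processing notes, CASAVA, HISAT2 2.0.5, featureCounts 1.5.0-p3, DESeq2 1.20.0 and mm10 were used. Strand setting, gene annotation and multimapping are not given in the sources used. The authors deposited a signal per gene and library, read counts divided by a size factor, and whole reads were recovered from it within 0.001. The authors also deposited a log2 fold change and p-values per gene, quoted as theirs. Value columns of 2 libraries matched no label and were not used.

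Values were tested as log2(value + 1) with limma 3.58.1 (R 4.3.3), for the 14062 of 24368 genes with a mean of at least 10 over the 10 libraries, with Benjamini-Hochberg adjustment over all of them and a threshold of 0.05. A fold change on this scale understates the change of low genes. Alternatives were edgeR 4.0.16 and DESeq2 1.42.0 on recovered reads, other scalings, pseudocounts and filters, a replicate block, and leaving out libraries, with CPM of recovered reads added after seeing the data. Promoters came from RefSeq (GRCm38.p6), and protein sequences were not used here. Figures were drawn with matplotlib 3.10.9 (Python 3.11.15).

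The members and lists were chosen with earlier results of these data known. Named were the 9 members, other pathway genes past the threshold, the 4 others with the largest fold change and a mean of at least 100, and the genes nearest in pattern to Gpam, Agpat1 and Lpin1. Shares and ratios within a step, Gpd1l and Mogat2 were chosen after their values were seen.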

Additional observations from a re-analysis of the deposited data

Results flagged for a closer look

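Among 62 groups of 5 libraries, 5 held a library far from the other 4, by a gap of over 0.71 of the group's range. For independent, normally distributed values this rule flags about 1 in 20. The groups here share libraries and hold untransformed reads, so that rate does not apply to them. All 5 flagged groups were cKO groups of other pathway genes and none was a member. In cKO 1, Agpat5 stood at 345 normalised reads against 150 to 158 in the other cKO libraries, Cnep1r1, a subunit of the phosphatase that acts on lipins, at 1372 against 624 to 761, and Cept1, which makes phospholipid from diacylglycerol, at 4397 against 1794 to 2104. The rule was applied to normalised reads only. Of the 10 libraries, cKO 1 had the highest summed normalised reads, 2.04e+07, and the fewest recovered reads, 16063987. Whether its 3 flags hold in CPM was not tested. Plpp3, a lipid phosphate phosphatase, stood at 1478 in cKO 4 against 655 to 795. Gpat2 stood at 3.17 in cKO 3 against 0 to 0.909, a level of a few reads.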

How the results depend on the processing

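Over the 21 alternatives (20 for Gpam, which was not tested at a mean of 50 or more), Agpat1 ran from -0.98 to -0.61 in log2 fold change, Agpat2 from -0.69 to -0.50, Agpat3 from -0.69 to -0.44 and Gpam from 0.63 to 0.91, with their direction kept. Adjusted p ran from 0.0128 to 0.264, from 0.0346 to 0.279, from 0.0398 to 0.257 and from 0.0484 to 0.269. Lpin3 changed sign without cKO 3 and cKO 5, to 0.065, and the cause was not tested. The count of members past the threshold was 3 with DESeq2 and 0 to 2 when each library was left out. In CPM of recovered reads the groups were apart for 1 member in place of 3. The count of all genes was 750 with DESeq2, 56 without cKO 3 and cKO 5, and 30 to 611 when each library was left out. The replicate numbers 1, 3, 4 and 5 are shared by the groups, but same-numbered libraries had correlations of -0.105 to 0.118 and 1 of 4 exceeded 0.1, and 1 of 4 WT and 0 of 4 cKO libraries correlated best with their own number. With the replicate block 130 genes passed and 88 in the same 8 libraries without the pairing, and Gk5 had an adjusted p of 0.0503. Gpam and Lpin1 had 30 to 125 recovered reads per library. For Lpin1 counting error gives a coefficient of variation of 11.7% in WT and 10.1% in cKO, below the 33.0% and 21.3% measured.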
